A study of Mus musculus with 8 samples.

Results

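Germ cells of the fetal mouse ovary that had lost Snf5 were compared with control germ cells across every named gene measured in them, with emphasis on functions and pathways outside meiosis. The comparison took the loci of the ovarian table that carry a gene name and whose FPKM, averaged over the 4 ovarian libraries, reached 1. FPKM counts sequenced fragments scaled to the length of the transcript and to the size of the library. Of 29018 loci in that table, 24281 were named and 11642 of these met the rule. They hold 11529 of the 23694 named genes.

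The germ cells came from mouse embryos at E15.5 and were sorted by EGFP driven by the Oct4 (Pou5f1) promoter, a transgene that control and mutant embryos share. Mutant germ cells (Snf5 CKO) came from Snf5 fx/Δ embryos with TNAP-Cre, so that 1 Snf5 allele was deleted in every cell of the embryo and the floxed allele was removed by Cre. TNAP-Cre is a Cre cDNA knocked into Alpl, the gene of tissue nonspecific alkaline phosphatase, and it recombines in primordial germ cells (PGCs) but not in every one, so that the sorted cells are a mosaic. Control germ cells were a mixture from Snf5 fx/+, Snf5 fx/Δ and Snf5 fx/+ with TNAP-Cre embryos. The labels give the strain background as C57BL/6 and the study's methods describe a mixed background. There are 2 libraries in each group, out of 8 in the series. They are described as biological duplicates, each a pool of sorted germ cells from more than 1 embryo, and p-values here measure the spread between these libraries. With 2 against 2 libraries an exact permutation test cannot give a two-sided p below 0.333, so p-values come from the moderated test of limma across all genes.

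Snf5, also called Smarcb1, encodes a core subunit of SWI/SNF, a complex that uses ATP to slide or evict nucleosomes and so opens promoters and enhancers to transcription factors. Female germ cells stop dividing as PGCs after reaching the gonad, enter meiotic prophase and begin to build the stores of an oocyte. PGCs carry parts of the pluripotency network of embryonic stem cells, which female germ cells normally shut down as meiosis begins.

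Smarcb1 itself (mm10, chromosome 10, 75896769 to 75921614) was at 23.4 and 22.3 FPKM in the controls and at 4.24 and 2.47 FPKM in Snf5 CKO, a log2 fold change of -2.48 (SE 0.24, adjusted p = 0.00027). The values of the groups did not overlap, and transcript remained in both Snf5 CKO libraries. Ddx4, a germ cell RNA helicase, stood at 363 and 296 FPKM in controls and 249 and 203 FPKM in Snf5 CKO, and Dazl, a germ cell RNA-binding protein, at 771 and 888 against 629.9 and 631 FPKM. Neither passed the test (adjusted p = 0.077 and 0.23), and both are abundant in every library. Of the 11 germ cell markers tested these were the 2 not called, while 7 (63.6%) were lower and 2 (18.2%) higher. Among the lower ones Mael went from 670 and 631 to 203 and 140 FPKM and Stk31 from 530 and 446 to 157 and 129 FPKM. Sycp3, of the synaptonemal complex, fell by 3.58 on the log2 scale and Figla, an oocyte transcription factor, by 3.41, while Pou5f1 rose by 4.59 and Tcl1, a cofactor of AKT kinases, by 5.23. The gene whose promoter drives the sorting reporter thus differed between the groups, at 8.63 and 16.7 FPKM in controls and 295 and 333 FPKM in Snf5 CKO. Alpl, which carries the Cre, also rose, from 13.8 and 21.2 to 116 and 101 FPKM.

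Markers of other ovarian cells summed to far less than those of germ cells, and several were higher in Snf5 CKO. The 13 pre-granulosa markers summed to 26.1 and 58.5 FPKM in the controls and to 72.0 and 84.6 FPKM in Snf5 CKO, against 4277 and 4290 and 2968 and 3086 FPKM for 11 germ cell markers. Both Snf5 CKO libraries were above both controls for 10 of these 13 markers, and Gng13, at 12.7 and 42.5 against 34.0 and 49.4 FPKM, made up much of the sum. The germ cell sum in Snf5 CKO owed much to Dppa3, at 41.2 and 61.3 against 1406 and 1632.5 FPKM. Both Snf5 CKO libraries were below both controls for 9 of the 11 germ cell markers and above them for 2. Of 13 Sertoli markers, which the fetal ovary shares in part, 8 were above both controls and 7 under 1 FPKM in every library, with sums of 9.05 and 10.6 against 21.6 and 19.6 FPKM. Foxl2, the defining factor of pre-granulosa cells, was at 0.328 and 1.13 against 1.67 and 2.07 FPKM. Of 13 stromal markers, 12 endothelial markers and 9 steroidogenic markers, 5, 8 and 5 stayed under 1 FPKM in every library. The stromal sum was lower in Snf5 CKO (61.0 and 59.9 against 28.8 and 29.2 FPKM). The endothelial sum was higher (9.43 and 9.04 against 28.8 and 27.1 FPKM) mainly through Pecam1, which PGCs also express, at 4.097 and 3.65 against 24.3 and 19.7 FPKM. Of the blood markers Hbb-y, an embryonic globin, stood at 19.97 FPKM in Snf5 CKO replicate 2 and at 0.330 FPKM or less in the other libraries. Of the 10 blood markers Tyrobp (0.647 and 0.753 against 1.75 and 1.85 FPKM) and Fcer1g (0.204 and 0.202 against 1.54 and 1.96 FPKM) were higher in both Snf5 CKO libraries than in both controls, and Ptprc, the pan-leukocyte marker, was at 0.0144 FPKM or less. The part of these cells in the differences given here was not tested, and in bulk RNA fewer cells of a type and less RNA per cell cannot be told apart.

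The libraries of a group resembled each other more than those of the other group. Across the tested genes Pearson's r of log2(FPKM + 1) was 0.975 between the controls, 0.969 between the Snf5 CKO libraries and 0.776 to 0.823 across the groups. Loci without a gene name took 36.7% and 35.3% of the FPKM of the controls but 9.94% and 28.2% of Snf5 CKO replicates 1 and 2, so the share left for named genes differed between libraries. The total FPKM differed too, at 1029097 and 1093897 in controls and 673741.5 and 1026725 in Snf5 CKO. Summed over the tested genes it was 648565 and 705125 against 604894 and 735297 FPKM.

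Of the 11529 genes, 2490 (21.6%) were lower and 1994 (17.3%) were higher in Snf5 CKO, where a call needed a log2 fold change of 1 or more in either direction and an adjusted p (Benjamini-Hochberg) under 0.05. The scale is log2(FPKM + 1) throughout, so that changes of low genes come out too small. Genes with both Snf5 CKO libraries below both controls made up 45.1% of those tested, and genes with both above made up 36.4%. The genes called lower held 24.6% and 21.4% of the tested FPKM in the controls and 7.53% and 6.34% in Snf5 CKO, and the genes called higher went from 4.93% and 5.82% to 19.2% and 18.5%. The median log2 fold change over all tested genes was -0.13. Rescaling the libraries by their median ratio moves that median up by 0.15 and turns the balance to 2047 lower and 2319 higher, so the counts of functional groups below are read beside the shares and the median over all genes. The lists were chosen with earlier results of these data known, and a gene that passed the filter only through the group where it is high had to differ. This holds for tested genes given below with a mean under 1 FPKM in either group, among them Ctgf, Fzd10, Got1, Aldh4a1 and Cyp26a1.

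Promoters of several genes with the largest changes are shown because the letters they hold differed in frequency between falling and rising genes. STRA8 and MEIOSIN together switch on meiotic genes by binding promoters with the letters CNCCTCAG, and the first 4 promoters carry these letters, in capitals, on either strand. Azi2, Spdya, Ugt8a and Figla were all lower in Snf5 CKO. Each window runs 5′ to 3′ along its gene from 250 bases before to 50 bases after the RefSeq start (GRCm38.p6, the same coordinates as mm10).
Azi2, chr9:118040272-118040571, plus strand: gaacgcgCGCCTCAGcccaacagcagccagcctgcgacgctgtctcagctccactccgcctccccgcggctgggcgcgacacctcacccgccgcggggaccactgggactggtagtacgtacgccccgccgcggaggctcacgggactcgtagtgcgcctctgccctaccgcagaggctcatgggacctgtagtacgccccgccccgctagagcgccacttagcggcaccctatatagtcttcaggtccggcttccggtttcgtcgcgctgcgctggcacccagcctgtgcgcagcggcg
Spdya, chr17:71551811-71552110, plus strand: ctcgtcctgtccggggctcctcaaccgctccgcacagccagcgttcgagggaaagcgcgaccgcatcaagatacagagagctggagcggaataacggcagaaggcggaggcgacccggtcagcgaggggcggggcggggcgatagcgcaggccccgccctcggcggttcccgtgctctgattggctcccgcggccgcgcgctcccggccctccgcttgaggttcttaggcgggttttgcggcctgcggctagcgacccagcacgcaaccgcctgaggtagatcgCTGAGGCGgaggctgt
Ugt8a, chr3:125938603-125938902, minus strand: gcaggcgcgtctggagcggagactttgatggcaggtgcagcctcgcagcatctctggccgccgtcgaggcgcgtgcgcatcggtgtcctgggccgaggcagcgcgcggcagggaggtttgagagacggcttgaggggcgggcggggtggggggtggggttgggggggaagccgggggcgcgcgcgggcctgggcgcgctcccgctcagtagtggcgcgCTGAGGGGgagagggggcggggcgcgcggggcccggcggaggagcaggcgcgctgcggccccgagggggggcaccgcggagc
Figla, chr6:86016941-86017240, plus strand: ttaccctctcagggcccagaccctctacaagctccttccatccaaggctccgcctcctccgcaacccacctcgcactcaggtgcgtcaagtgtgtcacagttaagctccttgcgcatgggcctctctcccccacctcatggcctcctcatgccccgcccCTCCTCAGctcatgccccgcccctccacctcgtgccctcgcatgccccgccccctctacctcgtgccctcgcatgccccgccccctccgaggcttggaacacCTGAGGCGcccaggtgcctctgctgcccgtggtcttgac
The next pair belongs to genes that were higher, Cdx2 and Zfp296, with the POU octamer ATGCAAAT, the site that OCT4 and its relatives bind, in capitals on either strand.
Cdx2, chr5:147307200-147307499, minus strand: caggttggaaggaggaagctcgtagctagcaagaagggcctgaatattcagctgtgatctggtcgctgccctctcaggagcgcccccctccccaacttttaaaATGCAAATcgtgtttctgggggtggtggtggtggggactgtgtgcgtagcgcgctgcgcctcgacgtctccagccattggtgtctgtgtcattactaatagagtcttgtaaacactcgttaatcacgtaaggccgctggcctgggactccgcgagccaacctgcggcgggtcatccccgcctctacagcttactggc
Zfp296, chr7:19577037-19577336, plus strand: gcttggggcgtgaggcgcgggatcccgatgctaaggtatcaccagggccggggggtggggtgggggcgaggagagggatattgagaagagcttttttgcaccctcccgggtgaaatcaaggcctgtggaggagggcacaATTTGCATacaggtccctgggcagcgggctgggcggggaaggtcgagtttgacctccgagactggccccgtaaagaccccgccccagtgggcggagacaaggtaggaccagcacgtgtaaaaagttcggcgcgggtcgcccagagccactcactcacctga

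The motif of STRA8 and MEIOSIN was found in 9.60% of the 8996 promoters with a sequence, in 14.0% of the promoters of genes called lower and in 6.90% of those called higher. Read the other way, of 864 tested genes whose promoter holds it, 32.1% were lower and 12.3% were higher, beside 21.6% and 17.3% of all tested genes, and their median log2 fold change was -0.53. Stra8 stood at 225 and 393 FPKM in controls and at 269 and 329.8 FPKM in Snf5 CKO, with a log2 fold change of 0.00 (SE 0.31, adjusted p = 0.99). Its groups overlapped. Meiosin, the gene of its partner, was not analysed here, so the level of the pair is not given. The motif stands 243 bases before the start in Azi2, 32 before it in Ugt8a and 34 after it in Spdya, and Figla holds it at 91 bases before and 11 after the start.

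The octamer went the other way. It was found in 1.501% of all promoters, in 1.21% of genes called lower and in 2.54% of genes called higher, and of its 135 carriers 17.8% were lower and 28.9% higher. The core of the ETS family, CCGGAAG, was found in 19.9% of all promoters and in 20.7% of genes called lower but in 11.3% of genes called higher, and the NRF1 core GCGCATGC in 6.31%, 7.64% and 3.45%. Both cores were searched on either strand and are typical of promoters of housekeeping genes. The E-box CACGTG was found in 10.4% of genes called lower and 10.9% of genes called higher. A match describes letters in a window of 300 bases and says nothing of binding.

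Genes called higher also had promoters with fewer CpG dinucleotides. The ratio of observed to expected CpG had a median of 0.793 over all promoters, 0.812 for genes called lower and 0.721 for genes called higher. Of the 582 genes with a ratio from 0.2 to 0.4, 29.0% were higher in Snf5 CKO and 20.1% lower, whereas of the 1316 genes with a ratio of 1 or more 10.9% were higher and 24.01% lower. The share of genes called higher fell at each step from the second class to the last.

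**Figure D1:**
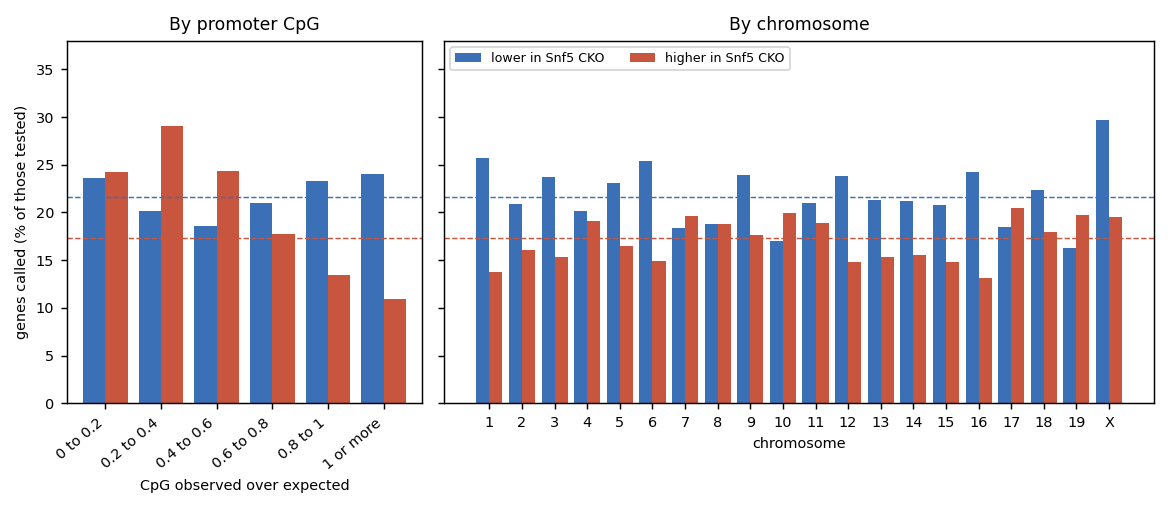
Genes called lower (blue) and higher (red) in Snf5 CKO as a share of those tested, by the CpG ratio of the promoter (left) and by chromosome (right), with dashed lines at 21.6% and 17.3%, the shares over all tested genes. The share of genes called higher runs from 29.0% to 10.9% over the upper 5 CpG classes, and 29.7% of X-linked genes were lower.

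Meiotic genes moved mainly down, and oocyte regulators in both directions. Among 14 tested oocyte transcription regulators 5 were lower and 7 higher. Taf7l, a germ cell relative of a TFIID subunit, was at 635 and 623 FPKM in the controls and 70.4 and 86.5 FPKM in Snf5 CKO, a log2 fold change of -2.99 (SE 0.21, adjusted p = 0.00011). Taf4b, another gonadal TFIID subunit, went from 146 and 120.1 to 36.7 and 29.5 FPKM and Lhx8, a homeobox factor of early oocytes, from 4.87 and 4.36 to 0.237 and 0.544 FPKM. The higher members included Msx2 (7.33 and 9.26 against 59.6 and 57.9 FPKM), Gata2 (18.98 and 22.3 against 58.04 and 53.6 FPKM) and Id2 (23.2 and 29.02 against 103 and 110.3 FPKM), which respond to BMP in several tissues. Of 33 tested recombination genes that the study's figures leave out, 16 were lower, among them Spata22 and Meiob, which work together on single-stranded DNA, at log2 fold changes of -4.14 and -3.93. The cohesin subunits split: meiotic Rad21l went from 60.7 and 75.1 to 1.997 and 4.48 FPKM and mitotic Rad21 from 10.2 and 7.02 to 52.6 and 40.5 FPKM.

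Genes of proteins that store and time maternal mRNA were lower more often than higher. Of 44 tested members 14 (31.8%) were lower and 6 (13.6%) higher, with a median log2 fold change of -0.70. Cpeb2, which binds cytoplasmic polyadenylation elements, was at 18.8 and 18.7 FPKM in controls and 2.64 and 2.63 FPKM after Snf5 loss (log2 fold change -2.44, SE 0.18, adjusted p = 0.00012). Its relatives Cpeb1 and Cpeb4 were lower too, at 149 and 117 against 61.5 and 52.7 FPKM and 9.49 and 8.598 against 1.12 and 1.26 FPKM. Gm1564, now called Meioc, and its partner Ythdc2, which together clear mitotic transcripts at the start of meiosis, went from 228 and 193 to 39.5 and 36.04 FPKM and from 25.1 and 24.5 to 9.89 and 7.23 FPKM. Against these, the PGC regulators Dnd1 and Nanos3 rose. Dnd1 was at 4.94 and 8.81 FPKM in controls and 141 and 179 FPKM in Snf5 CKO, a log2 fold change of 4.39, although its locus overlaps Wdr55, which rose by 2.28, and the library kit does not keep the strand. Nanos3 went from 0.447 and 1.196 to 9.86 and 13.6 FPKM. Ybx1, a general mRNA-binding protein, rose from 52.9 and 56.5 to 171 and 175 FPKM.

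Many genes of the early germ cell state rose. Of 28 tested genes of the naive pluripotency network 21 were higher and 3 lower, with a median of 2.48. Sall4, a zinc finger factor of stem cells and PGCs, rose from 5.72 and 7.63 to 115 and 95.7 FPKM and Klf5 from 6.64 and 5.84 to 84.9 and 74.1 FPKM, while Fbxo15, a target of OCT4 in stem cells, was lower at 62.01 and 44.2 against 17.5 and 16.7 FPKM. Of 19 tested genes for the surface and migration of PGCs 9 were higher and 1 lower. Kit, the receptor of stem cell factor, rose from 12.8 and 12.7 to 63.8 and 46.7 FPKM, and Ror2, a Wnt5a receptor, from 2.32 and 2.195 to 31.4 and 26.2 FPKM. The integrin partners went apart: Itgb3 rose from 1.76 and 1.86 to 26.7 and 20.8 FPKM and Itga2b fell by 2.70 on the log2 scale.

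**Figure D2:**
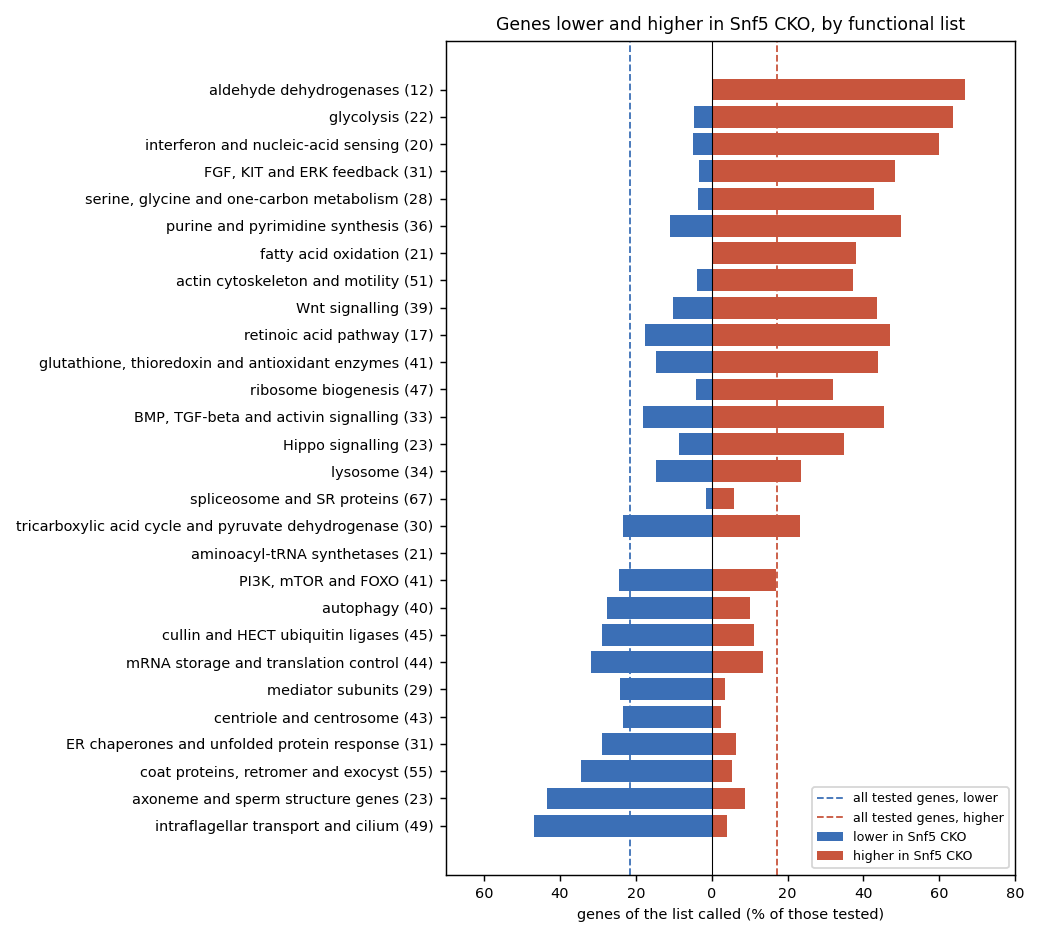
Share of tested genes called lower (blue, to the left) and higher (red, to the right) in Snf5 CKO for 28 functional lists, with the number tested in parentheses and dashed lines at the shares over all tested genes. Cilium, axoneme and coat protein genes lie at the lower end and aldehyde dehydrogenases, glycolysis and interferon genes at the higher end, and none of the 21 aminoacyl-tRNA synthetases was called.

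Glycolysis had many rising genes. Of 22 tested genes 14 (63.6%) were higher and 1 was lower, with a median log2 fold change of 1.24. Slc2a3, the glucose transporter GLUT3, was at 5.14 and 4.902 FPKM in the controls and 164 and 141 FPKM after Snf5 loss (log2 fold change 4.67, SE 0.17, adjusted p = 9.7e-05). Slc2a1, the transporter GLUT1, was at 14.9 and 14.5 against 14.02 and 16.3 FPKM, and its groups overlapped (adjusted p = 0.86). Enzymes from the middle to the end of the pathway rose. Pfkl, a phosphofructokinase, went from 2.104 and 1.92 to 23.6 and 27.7 FPKM, Eno1, an enolase, from 30.5 and 23.05 to 401 and 329.6 FPKM, and Ldha, a lactate dehydrogenase subunit, from 17.9 and 26.01 to 90.8 and 142 FPKM.

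The mitochondrial end of carbon use had single genes with large changes in both directions. In the tricarboxylic acid cycle and its entry points 7 of 30 tested genes (23.3%) were lower and 7 (23.3%) higher. The shares over all tested genes were near these, at 21.6% and 17.3%, and the median of the list was -0.03. Pcx, the pyruvate carboxylase that refills the cycle, fell from 261 and 246 to 40.4 and 35.8 FPKM (log2 fold change -2.70, adjusted p = 0.0001). Cs, the citrate synthase of the first step, fell from 354 and 343 to 104 and 98.1 FPKM. In contrast Idh2, a mitochondrial isocitrate dehydrogenase, rose from 10.2 and 14.7 to 106 and 107 FPKM, Mdh2, a malate dehydrogenase, from 126 and 117 to 519.8 and 490.1 FPKM, and Got1, a cytosolic aspartate aminotransferase, from 0.5797 and 0.571 to 8.75 and 8.84 FPKM. For all 5 genes the groups did not overlap, which the rule for naming the largest changes of a list required. Of 21 tested genes of fatty acid oxidation 8 were higher and 0 lower by limma, with 11 higher and 4 lower at an unadjusted p under 0.05. Acadm, the medium-chain acyl-CoA dehydrogenase, rose from 5.203 and 5.06 to 48.8 and 42.96 FPKM. Cpt1a, which lets fatty acids into mitochondria, stood at 1.28 and 1.27 against 2.19 and 0.847 FPKM (adjusted p = 0.79).

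The respiratory chain held a pair of isoforms that went apart. Of 23 tested genes with complex IV symbols 2 (8.70%) were lower and 7 (30.4%) higher. Of 37 complex I genes 2 (5.41%) were lower and 1 (2.70%) higher, and of 17 ATP synthase genes 1 (5.88%) and 4 (23.5%). The shares over all tested genes were 21.6% and 17.3%. Cox8a, the common isoform of 1 subunit of cytochrome c oxidase, rose from 58.7 and 88.8 to 792 and 1242 FPKM, and Cox8c, its testis isoform, fell from 28.6 and 57.4 to 3.597 and 4.496 FPKM. Cox7b rose from 18.1 and 29.8 to 309.7 and 529 FPKM. Slc25a5, which exchanges ADP and ATP across the inner mitochondrial membrane, rose from 17.4 and 26.6 to 377 and 505 FPKM (log2 fold change 4.28, adjusted p = 9.9e-05), whereas 173 tested solute carriers as a family had 36 lower and 39 higher.

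Genes of serine, glycine and one-carbon metabolism and of nucleotide synthesis were higher more often than lower. In the first, 12 of 28 tested genes were higher and 1 lower, and in the second 18 of 36 were higher and 4 lower, with medians of 0.79 and 0.99. Tdh, the threonine dehydrogenase that mouse stem cells depend on, was at 5.81 and 8.31 FPKM in controls and 98.3 and 113 FPKM after Snf5 loss (log2 fold change 3.74, SE 0.21, adjusted p = 9.7e-05). Mthfd1, a cytosolic enzyme that interconverts folates, rose from 6.17 and 7.16 to 84.9 and 65.03 FPKM, and Shmt2, the mitochondrial serine hydroxymethyltransferase, from 3.34 and 2.72 to 31.6 and 28.8 FPKM. The locus of Shmt2 overlaps that of Ndufa4l2. The mitochondrial folate enzyme Mthfd2 was at 13.7 and 17.4 against 14.9 and 15.04 FPKM (adjusted p = 0.84). In nucleotide synthesis Dctd, a dCMP deaminase, rose from 4.79 and 5.48 to 46.2 and 41.1 FPKM, Aprt, which salvages adenine, from 13.9 and 19.5 to 85.8 and 129 FPKM, and Ak1, an adenylate kinase, from 0.408 and 1.01 to 14.4 and 13.8 FPKM. Hprt, which salvages hypoxanthine and guanine, fell from 532 and 606 to 219 and 239 FPKM.

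The small subunits of ribonucleotide reductase changed in opposite directions. Rrm2, the form used in S phase, rose from 50.3 and 46.7 to 183 and 173 FPKM (log2 fold change 1.85, SE 0.17, adjusted p = 0.00023). Rrm2b, the form used outside S phase and induced by p53, fell from 17.8 and 16.1 to 3.57 and 3.31 FPKM (log2 fold change -2.01, SE 0.18, adjusted p = 0.00023). Paics, of purine synthesis, stood at 108 and 107 against 125 and 120.3 FPKM and did not pass the test (adjusted p = 0.37).

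Several aldehyde dehydrogenases and antioxidant enzymes rose. Of 12 tested aldehyde dehydrogenases 8 were higher and 0 lower by limma, with 9 and 1 at an unadjusted p under 0.05. Aldh4a1, of proline breakdown, went from 0.667 and 0.823 to 19.2 and 17.5 FPKM, Aldh1b1, a mitochondrial form, from 0.959 and 1.68 to 24.4 and 24.1 FPKM and Aldh7a1, of lysine breakdown, from 28.4 and 30.4 to 148 and 121 FPKM. Aldh1a2, which makes retinoic acid, was at 8.16 and 7.28 against 3.84 and 4.44 FPKM and was not called. Of 41 tested antioxidant genes 18 were higher and 6 lower. Gpx1, the common glutathione peroxidase, rose from 33.4 and 60.4 to 504 and 654 FPKM (log2 fold change 3.65, SE 0.31, adjusted p = 0.00018), Txn1, cytosolic thioredoxin, from 14.1 and 24.7 to 187 and 263 FPKM, and Prdx3, a mitochondrial peroxiredoxin, from 5.22 and 4.09 to 57.1 and 50.9 FPKM. Gstm5, a glutathione transferase of germ cells, fell from 103 and 106 to 31.4 and 37.8 FPKM. When low genes are also tested 5 aldehyde dehydrogenases are called higher.

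In cholesterol synthesis and uptake 11 of 28 tested genes were higher and 3 lower. Sqle, squalene epoxidase, was at 32.5 and 27.6 against 36.5 and 29.5 FPKM and did not pass the test (adjusted p = 0.58). Ebp, a sterol isomerase, rose from 1.05 and 1.77 to 27.3 and 31.4 FPKM. Scap, which escorts SREBP to the Golgi, and Insig2, which retains it in the ER, both fell, from 91.95 and 81.3 to 35.6 and 29.1 FPKM and from 23.3 and 19.06 to 7.96 and 7.66 FPKM.

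Folding genes of the ER and of the cytosol differed in their counts. Of 31 tested genes of the ER and its unfolded protein response 9 (29.0%) were lower and 2 higher, while of 34 cytosolic chaperones 3 were lower and 9 higher. Dnajb11, a cochaperone of BiP in the ER, fell from 408 and 303 to 72.3 and 69.2 FPKM (log2 fold change -2.30, SE 0.21, adjusted p = 0.00025). Dnajc3, another ER cochaperone, fell from 62.2 and 56.1 to 13.6 and 14.03 FPKM and Atf6, a sensor of unfolded protein, from 21.7 and 18.4 to 3.63 and 2.81 FPKM. In the cytosol Hsp90ab1 rose from 329 and 371 to 1097 and 941 FPKM and its cochaperone Fkbp4 from 89.7 and 103 to 268 and 268 FPKM. The germ cell forms went down, with Hspa2, an HSP70 of meiotic cells, at 34.2 and 34.8 against 6.09 and 4.88 FPKM and Hspa4l at 91.4 and 69.5 against 14.8 and 10.6 FPKM. When low genes are also tested 5 cytosolic chaperones are called higher.

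Genes of membrane traffic were lower more often than higher. Of 55 tested genes of coats, retromer and exocyst 19 (34.5%) were lower and 3 higher, with a median log2 fold change of -0.65. Sec24d, a cargo adaptor of the COPII coat, was at 15.2 and 14.4 FPKM in controls and 1.72 and 2.28 FPKM after Snf5 loss (log2 fold change -2.40, SE 0.20, adjusted p = 0.00017), whereas Sec24a stood at 4.73 and 3.03 against 3.05 and 2.78 FPKM (adjusted p = 0.3). Vps29, a retromer subunit, fell from 542 and 562 to 109.9 and 141 FPKM and Exoc6b, of the exocyst, from 55.8 and 37.99 to 10.7 and 7.098 FPKM. The 3 higher genes were the clathrin light chains Clta and Cltb, at 19.06 and 21.8 against 65.7 and 84.96 FPKM and 3.62 and 2.69 against 9.07 and 8.06 FPKM, and Ap3b2, a subunit of the neuronal AP-3 adaptor, at 9.58 and 6.27 against 58.7 and 51.6 FPKM. When low genes are also tested, 10 genes of this list are called lower.

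Autophagy and ubiquitin ligases gave mixed counts with large changes of single genes. Of 40 tested autophagy genes 11 were lower and 4 higher, but rescaling by the median ratio gave 7 and 7, so no direction is given for the list. Park2 (parkin), which marks damaged mitochondria, fell from 32.9 and 34.3 to 5.09 and 6.41 FPKM, and Tollip, a ubiquitin-binding adaptor, from 72.8 and 67.2 to 15.8 and 15.5 FPKM. Tfe3, a transcription factor of lysosome and autophagy genes, rose from 4.799 and 5.55 to 28.8 and 24.7 FPKM. Of 34 tested lysosome genes 5 (14.7%) were lower and 8 (23.5%) higher, beside 21.6% and 17.3% of all tested genes. Ctsl, the protease cathepsin L, fell from 120.5 and 116 to 25.1 and 27.5 FPKM, as did Atp6v0d1 and Atp6v1h of the proton pump, at 167 and 139.8 against 51.5 and 52.98 FPKM and 371 and 268 against 118 and 99.4 FPKM. Grn, progranulin, rose from 17.9 and 28.9 to 98.8 and 103 FPKM.

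Among cullin and HECT ubiquitin ligases 13 of 45 tested genes were lower and 5 higher. Ddb2, which recognises ultraviolet damage for the CUL4 ligase, fell from 186 and 183 to 28.7 and 33.5 FPKM (log2 fold change -2.53, SE 0.17, adjusted p = 0.00011). Hectd2 and Herc1, HECT ligases, fell from 9.62 and 8.93 to 1.27 and 1.196 FPKM and from 51.04 and 40.5 to 11.6 and 9.28 FPKM. A pair of F-box adaptors with opposite roles at the G1 to S transition moved apart. Fbxw7, which directs cyclin E and MYC to destruction, fell from 65.1 and 46.7 to 15.99 and 13.7 FPKM, and Skp2, which directs the inhibitor p27 to destruction, rose from 2.05 and 1.36 to 13.3 and 10.01 FPKM. Of 53 tested F-box proteins as a family 18 were lower and 5 higher.

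**Figure D3:**
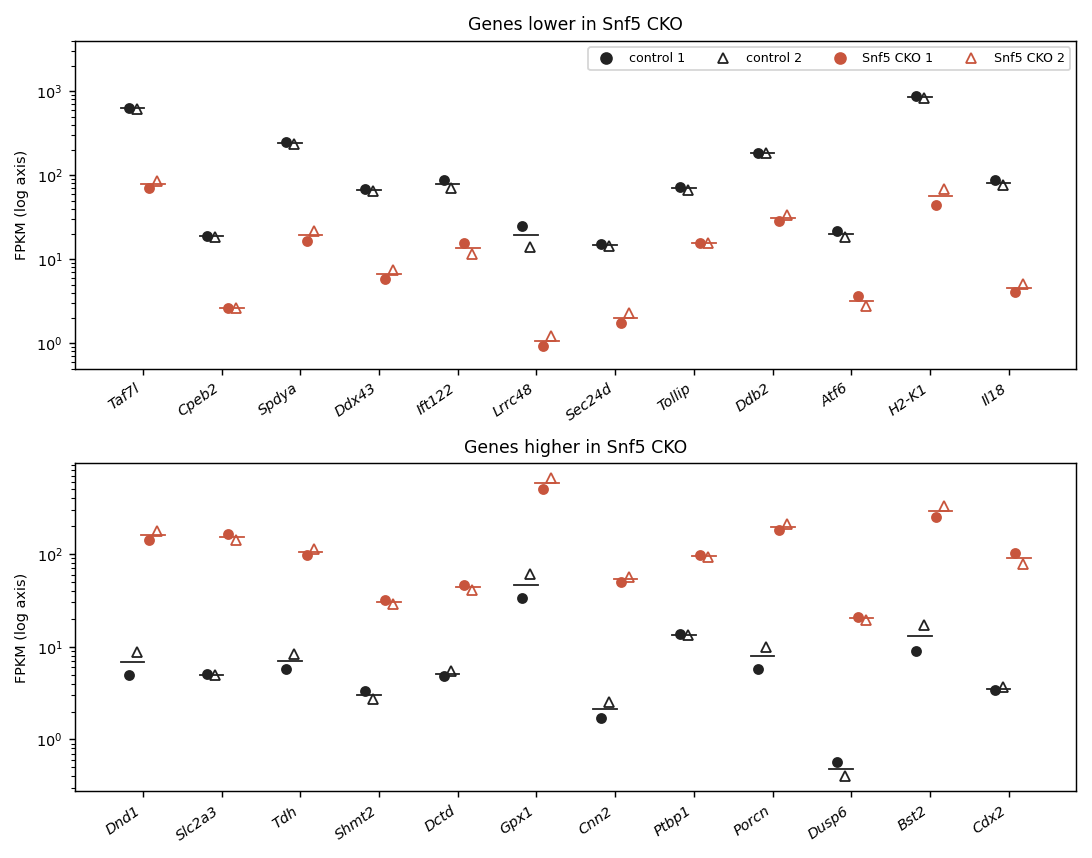
FPKM on a log axis of 12 genes lower (top) and 12 genes higher (bottom) in Snf5 CKO, with controls in black and Snf5 CKO in red, circles for replicate 1, triangles for replicate 2 and a bar at each group mean. In every gene shown both Snf5 CKO libraries lie on the same side of both controls, which the rule for naming the largest changes required.

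Cilium genes had the largest share of falling genes among the lists with more than 40 tested members. Of 49 tested genes of intraflagellar transport and the cilium 23 (46.9%) were lower and 2 higher, with a median log2 fold change of -0.82. Ift122, of the retrograde transport complex, was at 87.5 and 70.05 FPKM in controls and 15.5 and 11.7 FPKM after Snf5 loss (log2 fold change -2.46, SE 0.21, adjusted p = 0.00018). Ift88, of the anterograde complex, fell from 35.6 and 26.3 to 6.48 and 7.57 FPKM, Cep290, of the transition zone, from 12.9 and 8.68 to 1.76 and 1.73 FPKM, and Iqcb1, a partner of Cep290, from 819 and 613 to 129 and 123 FPKM. The locus of Iqcb1 overlaps that of Eaf2. Fuz, a planar polarity effector of the cilium, was higher at 1.11 and 1.66 against 5.69 and 6.36 FPKM. When low genes are also tested 14 genes of this list are called lower, and after rescaling by the median ratio 17 are.

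Centriole and axoneme genes were lower more often than higher. Of 43 tested centriole genes 10 (23.3%) were lower, near the 21.6% of all tested genes. Only 1 (2.33%) was higher, beside 17.3% of all tested genes. Of 23 tested axoneme and sperm structure genes, of 60 listed, 10 (43.5%) were lower and 2 (8.70%) higher. Haus8, of the augmin complex that branches microtubules, fell from 208 and 219 to 40.7 and 48.2 FPKM and Cetn4, a centrin, from 30.8 and 21.5 to 4.54 and 5.34 FPKM. Lrrc48, a subunit that regulates axonemal dynein, fell from 24.7 and 13.9 to 0.935 and 1.22 FPKM (log2 fold change -3.24, SE 0.29, adjusted p = 0.00021), and Lrrc6, a dynein assembly factor, from 8.55 and 7.54 to 0.707 and 0.491 FPKM. Rsph1, of the radial spoke, rose from 1.13 and 1.58 to 9.93 and 14.6 FPKM. Without the filter 4 centriole genes are called lower, and at a mean of at least 5 FPKM 6 axoneme genes are.

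Many genes of the actin cytoskeleton rose. Of 51 tested genes 19 (37.3%) were higher and 2 lower, with a median of 0.58. Cnn2, a calponin, was at 1.71 and 2.56 FPKM in controls and 50.3 and 56.9 FPKM after Snf5 loss (log2 fold change 4.14, SE 0.21, adjusted p = 9.7e-05). Fscn1, which bundles actin in protrusions, rose from 4.37 and 5.98 to 86.5 and 88.9 FPKM, Ezr (ezrin), which ties actin to the membrane, from 5.09 and 6.07 to 59.9 and 54.7 FPKM, and Actb itself from 111 and 168 to 546 and 779 FPKM. Among tubulins Tuba1b rose from 29.02 and 24.96 to 395 and 232 FPKM, and Tuba3a, expressed in the male germline, fell from 478 and 515 to 179.8 and 161 FPKM. Tubulin genes are near-identical copies, so their reads may have been split between them. The file places Cnn2 and Ptbp1, a splicing factor described below, at the same large locus. Without the filter 12 actin genes are called higher.

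Few tRNA synthetase and splicing genes were called. Of 21 tested aminoacyl-tRNA synthetases 0 were called by limma, with 3 lower and 7 higher at an unadjusted p under 0.05. Of 50 tested translation initiation factors 3 were lower and 6 higher. Of 75 cytoplasmic ribosomal proteins 11 were higher and 0 lower by limma (21 and 1 at an unadjusted p under 0.05), with a median log2 fold change of 0.66. That count is 0 without the filter, 19 after rescaling by the median ratio, 1 and 19 without control replicates 1 and 2, and 21 and 3 without Snf5 CKO replicates 1 and 2. Of 67 tested spliceosome genes and SR proteins 1 was lower and 4 higher, beside 21.6% and 17.3% of all genes. The called genes included regulators of tissue-specific splicing. Ptbp1, which represses neuronal and germ cell exons, rose from 13.7 and 13.3 to 98.4 and 93.3 FPKM (log2 fold change 2.74, SE 0.16, adjusted p = 9.9e-05), and its relative Ptbp2 stood at 84.3 and 75.2 against 45.6 and 40.96 FPKM, a log2 fold change of -0.87 under the limit of 1. Esrp1, of epithelial splicing, rose from 9.78 and 6.62 to 37.5 and 28.2 FPKM, and Rbfox2 fell from 21.1 and 19.6 to 8.45 and 8.08 FPKM.

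Among genes of ribosome biogenesis 15 of 47 tested were higher and 2 lower. Ubtf, the activator of RNA polymerase I, rose from 7.84 and 9.803 to 46.9 and 36.3 FPKM, Rrp9, of the U3 particle, from 7.82 and 7.84 to 34.4 and 35.1 FPKM and Mybbp1a from 27.7 and 23.3 to 112 and 85.98 FPKM. Ncl (nucleolin) stood at 184 and 143 against 209.9 and 164 FPKM (adjusted p = 0.48). Ltv1, which helps assemble the small subunit, fell from 269 and 227 to 105 and 90.7 FPKM.

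Chromatin regulators outside SWI/SNF changed one by one. Of 25 tested genes of ISWI, CHD, INO80 and other remodellers, Atrx and Hells among them, 5 (20%) were lower and 3 (12%) higher. After rescaling by the median ratio these counts were 3 and 3. The shares over all tested genes were 21.6% and 17.3%. Smarca5, the ISWI ATPase, fell from 402 and 318 to 129 and 102 FPKM, its partner Baz1a from 25.8 and 22.3 to 5.07 and 4.62 FPKM, and Ep400, an ATPase of the INO80 class, from 63.1 and 56.5 to 18.6 and 16.9 FPKM. Atrx rose from 6.92 and 6.85 to 27.8 and 18.9 FPKM. Of 32 tested genes of histone acetylation 3 were lower and 5 higher. Brdt, the testis bromodomain reader, fell from 18.2 and 18.99 to 4.87 and 4.76 FPKM, and Hdac8, a class I deacetylase, rose from 1.37 and 1.82 to 13.6 and 14.2 FPKM. Mediator, which links enhancers to RNA polymerase II, had 7 of 29 tested subunits (24.1%) lower and 1 (3.45%) higher, with a median of -0.69. The share lower was near the 21.6% of all tested genes. Med12, of its kinase module, fell from 25.5 and 18.7 to 6.297 and 4.29 FPKM. Without control replicate 2 more subunits are called lower, and so are more of all tested genes.

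Genes of the Wnt, FGF and BMP pathways were higher more often than lower. In Wnt signalling 17 of 39 tested genes were higher and 4 lower. Porcn, which loads Wnt ligands with lipid, was at 5.68 and 10.02 FPKM in controls and 182 and 209 FPKM after Snf5 loss (log2 fold change 4.51, SE 0.26, adjusted p = 9.7e-05). The receptor Fzd10 rose from 0.641 and 0.923 to 20.5 and 18.4 FPKM, the nuclear effector Lef1 from 7.65 and 8.38 to 46.5 and 33.1 FPKM, and the feedback gene Axin2 from 1.96 and 1.89 to 10.9 and 8.696 FPKM. Other feedback and transducer genes fell. Nkd1, an antagonist of Dishevelled, went from 29.9 and 25.3 to 8.53 and 5.76 FPKM, Dvl1 from 64.1 and 50.1 to 18.8 and 17.4 FPKM and the coreceptor Lrp6 from 59.2 and 65.9 to 25.03 and 26.6 FPKM. Rspo1, a secreted Wnt amplifier and a pre-granulosa marker, rose from 1.16 and 1.38 to 6.01 and 5.98 FPKM, beside the sums of pre-granulosa markers given above, whose part in the signalling genes was not tested.

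In FGF, KIT and ERK signalling 15 of 31 tested genes were higher and 1 lower. Several rising genes are among those that ERK is known to induce. Dusp6, a phosphatase of ERK, was at 0.568 and 0.3997 FPKM in controls and 21.1 and 19.6 FPKM after Snf5 loss (log2 fold change 3.85, SE 0.19, adjusted p = 9.7e-05). Dusp4, another such phosphatase, rose from 0.874 and 1.06 to 22.04 and 11.4 FPKM, and the ETS factors Etv4 and Etv5 rose from 0.824 and 0.598 to 7.999 and 9.73 FPKM and from 7.75 and 8.54 to 78.5 and 69.5 FPKM. Dusp6, Dusp4 and Etv4 reached the mean of 1 FPKM only through Snf5 CKO, so they had to differ. The receptor Fgfr1 stood at 12.02 and 11.8 against 14.2 and 12.6 FPKM (adjusted p = 0.48).

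In BMP, TGF-beta and activin signalling 15 of 33 tested genes were higher and 6 lower. The ligand Gdf3 rose from 0.235 and 0.7403 to 29.98 and 38.7 FPKM (log2 fold change 4.58, SE 0.25, adjusted p = 9.7e-05). Nodal, another ligand, was listed at 0 FPKM in control replicate 1 and at 0.0608 FPKM in control replicate 2, and at 9.895 and 14.9 FPKM in Snf5 CKO, and its antagonist Lefty2 went from 0.0198 and 0.0834 to 6.95 and 7.88 FPKM. Gdf3, Nodal and Lefty2 reached the mean of 1 FPKM only through Snf5 CKO, so they had to differ. The inhibitory Smad6 and Smad7 rose from 5.71 and 7.15 to 30.9 and 28.1 FPKM and from 1.596 and 1.33 to 8.901 and 7.29 FPKM. The receptor Tgfbr1 and the transducer Smad5 fell, from 43.2 and 41.2 to 18.6 and 15.4 FPKM and from 21.9 and 20.3 to 8.74 and 6.98 FPKM. The Id genes, targets of BMP that block helix-loop-helix factors, were divided: Id1 rose from 106 and 115 to 264 and 274 FPKM and Id4 fell from 26.3 and 25.5 to 5.52 and 5.58 FPKM. At a mean of at least 5 FPKM 9 genes of this list are called higher.

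Smaller pathways had single large changes. In Hippo signalling 8 of 23 tested genes were higher and 2 lower. Ctgf and Amotl2, targets of YAP and TEAD, rose from 0.452 and 0.681 to 16.99 and 18.4 FPKM and from 0.346 and 0.456 to 9.02 and 6.81 FPKM. The count of 8 falls to 3 without the filter, to 5 at a mean of at least 5 FPKM and to 5 without Snf5 CKO replicate 1. In the retinoic acid pathway 8 of 17 tested genes were higher and 3 lower, or 5 higher at a mean of at least 5 FPKM. The receptor Rarg rose from 1.404 and 0.942 to 9.395 and 9.93 FPKM, and Cyp26a1, which breaks retinoic acid down and is induced by it, from 0.199 and 0.138 to 3.86 and 4.601 FPKM. Among 24 tested LIF and JAK-STAT genes 5 (20.8%) were lower and 3 (12.5%) higher, beside 21.6% and 17.3% of all tested genes. Socs2, a feedback inhibitor, rose from 6.08 and 5.79 to 45.1 and 50.6 FPKM. In the Notch pathway Notch1 rose from 1.07 and 1.28 to 7.04 and 7.699 FPKM, its target Hey1 from 1.25 and 0.705 to 7.59 and 5.77 FPKM, and Numb, an inhibitor, fell from 35.8 and 32.4 to 14.6 and 12.2 FPKM.

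Of 41 tested genes of PI3K and mTOR signalling 10 (24.4%) were lower and 7 (17.1%) higher, near the 21.6% and 17.3% of all tested genes. Ddit4 and Eif4ebp1, which both restrain mTORC1 output, rose from 3.52 and 4.29 to 60.5 and 71.6 FPKM and from 11.6 and 14.7 to 62.8 and 107 FPKM. The genes of amino acid sensing Fnip1 and Rragc fell from 43.9 and 38.8 to 10.3 and 10.2 FPKM and from 90.9 and 66.3 to 24.1 and 20.1 FPKM, and Prkaa1, the AMPK kinase subunit, rose from 1.49 and 1.002 to 11.7 and 10.1 FPKM. Without the filter 5 genes of this list are called lower. Among 11 tested phosphodiesterases, which end cAMP and cGMP signals, 7 were lower and 3 higher, or 3 and 1 at a mean of at least 5 FPKM.

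Genes of innate immunity were higher more often than lower, and antigen presentation showed no such balance. Of 20 tested genes of interferon and nucleic-acid sensing, out of 43 listed, 12 were higher and 1 lower. Ifitm3, a PGC surface protein and interferon target, was at 16.4 and 27.3 FPKM in controls and 601 and 987 FPKM after Snf5 loss (log2 fold change 5.12, SE 0.32, adjusted p = 0.0001). Bst2 (tetherin) rose from 9.07 and 17.1 to 250.4 and 329 FPKM, Ddx58 (RIG-I), a sensor of viral RNA, from 1.13 and 0.738 to 16.6 and 12.6 FPKM, and the factor Irf1 from 5.54 and 4.84 to 23.4 and 22.3 FPKM. The receptor subunit Ifnar1 fell from 52.3 and 48.6 to 18.8 and 16.004 FPKM. At a mean of at least 5 FPKM 7 genes of this list are called higher.

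Of 16 tested genes of antigen presentation 3 were lower, 4 higher and 9 not called, near the shares over all genes. H2-K1, a class I histocompatibility gene, fell from 878 and 842 FPKM in controls to 44.6 and 68.7 FPKM after Snf5 loss (log2 fold change -3.93, SE 0.25, adjusted p = 0.0001). The class II gene H2-Ab1 fell from 124 and 155 to 5.89 and 12.2 FPKM. Class I genes are near-identical copies, and reads may have been split between them. The proteasome activator subunits Psme1 and Psme2, which interferon induces, rose from 31.6 and 47.2 to 131 and 135 FPKM and from 56.2 and 79.7 to 229 and 204 FPKM. Il18, an inflammatory cytokine, fell from 87.5 and 76.2 to 4.09 and 5.04 FPKM (log2 fold change -3.90). In the deposited table its locus begins just after the end of that of Tex12, a synaptonemal complex gene that fell by 2.86. In GENCODE these genes overlap on opposite strands, so their reads cannot be told apart and they are not among the neighbouring pairs described below.

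Contacts with other cells and with matrix changed in both directions. Of 30 tested semaphorins, plexins, ephrins and Eph receptors 6 (20%) were lower and 9 (30%) higher, beside 21.6% and 17.3% of all tested genes. The ligand Efnb2 fell from 22.6 and 14.2 to 2.24 and 1.99 FPKM, and its receptor Ephb4 rose from 1.79 and 1.74 to 21.5 and 15.4 FPKM. Efnb1 and Efna1 rose from 5.31 and 6.33 to 35.97 and 33.1 FPKM and from 1.79 and 3.19 to 26.9 and 31.1 FPKM. Of 6 tested claudins, of 32 listed, 4 (66.7%) were higher, beside 17.3% of all tested genes. Cldn3, a tight junction protein, rose from 0.213 and 0.265 to 34.7 and 50.3 FPKM (log2 fold change 5.11, SE 0.23, adjusted p = 9.7e-05). Cldn18 went from 0.0474 and 0.0977 to 5.39 and 4.63 FPKM. Cldn3 and Cldn18 reached the mean of 1 FPKM only through Snf5 CKO, so they had to differ. The basement membrane collagens went apart, with Col18a1 at 13.8 and 18.8 against 119.8 and 121 FPKM and Col4a2 at 15.8 and 16.3 against 3.199 and 3.43 FPKM. Serpinh1, the collagen chaperone of the ER, rose from 8.85 and 9.91 to 102 and 104 FPKM. Slit2, a guidance ligand, fell from 31.5 and 22.4 to 1.17 and 0.956 FPKM. Galnt7 and B3gnt7, which extend sugar chains, rose from 2.57 and 2.57 to 27.4 and 23.9 FPKM and from 6.64 and 8.55 to 53.9 and 55.4 FPKM, and B3galnt1 fell from 23.2 and 21.4 to 3.74 and 4.27 FPKM.

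Cell division genes outside the study's figures rose more often than they fell, with 17 of 67 tested genes (25.4%) higher and 6 (8.96%) lower. The shares over all tested genes were 17.3% and 21.6%. The median of the list was 0.20, and 44 of its genes were not called. Aurkb, the kinase of the chromosomal passenger complex, rose from 0.945 and 1.54 to 39.8 and 40.7 FPKM and Plk1 from 10.2 and 7.599 to 71.9 and 71.9 FPKM. Ube2c, a ubiquitin-conjugating enzyme that works with the anaphase-promoting complex, rose from 34.4 and 59.7 to 318 and 442 FPKM. The checkpoint kinase Bub1 fell from 302 and 232 to 81.6 and 68.3 FPKM while Bub3 rose from 12.1 and 11.7 to 90.5 and 102 FPKM. After rescaling by the median ratio 2 genes of this list are called lower.

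The largest changes outside every list were in genes of varied function. Among the falls, Acss2, which makes acetyl-CoA from acetate, went from 228 and 172 to 13.6 and 14.1 FPKM (log2 fold change -3.75), at a locus that overlaps Acss2os. Azi2, an adaptor of the kinase TBK1, went from 103 and 102 to 4.54 and 7.71 FPKM, and Ugt8a, which makes galactosylceramide, from 158 and 151 to 11.4 and 12.5 FPKM. Lcp2, a signalling adaptor of blood cells, fell from 87.4 and 106 to 6.97 and 7.27 FPKM. The blood markers are given above, and their part in this was not tested. Tex16, Nrip3 and 1700028K03Rik fell by 3.57, 3.56 and 3.56 on the log2 scale. The loci of Azi2 and Spdya overlap Cmc1 and Trmt61b. Both Snf5 CKO libraries were below both controls for each of these genes, as the rule that named them required.

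Among the rises, Gjb5, a connexin of gap junctions, went from 0.0971 and 0.235 to 18.5 and 23.1 FPKM. Cdx2, a homeobox factor of trophectoderm and gut, rose from 3.38 and 3.64 to 102 and 77.4 FPKM. Dhrs7, a short-chain dehydrogenase, rose from 2.05 and 2.19 to 65.3 and 67.3 FPKM, Car14, a carbonic anhydrase, from 0.1896 and 0.429 to 24.5 and 27.1 FPKM and Igsf21, of the immunoglobulin superfamily, from 0.675 and 0.124 to 33.1 and 36.05 FPKM. Gtsf1l went from 0.0814 and 0.0409 to 26.4 and 26.01 FPKM, whereas Gtsf1, a piRNA pathway gene of the same family, fell from 55.8 and 87.4 to 9.86 and 13.8 FPKM. Cpsf4l, a relative of a polyadenylation factor, and Dnaaf1, a dynein assembly factor, rose from 0.622 and 0.658 to 48.2 and 59.3 FPKM and from 0.352 and 0.346 to 42.8 and 31.9 FPKM. The locus of Dnaaf1 overlaps Taf1c. In each of these rises both Snf5 CKO libraries were above both controls, as the rule that named them required. Gjb5, Car14, Igsf21, Gtsf1l, Cpsf4l and Dnaaf1 reached the mean of 1 FPKM only through Snf5 CKO, so they had to differ.

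Neighbouring genes were compared by their orientation. Where 2 tested genes start head-to-head within 1000 bases of each other (655 pairs, median distance 113 bases), 28.0% of the 1305 genes involved were lower and 7.89% higher, beside 21.6% and 17.3% of all tested genes. Both genes were lower in 82 pairs, both higher in 8 and 10 were opposite, and the log2 fold changes of the pair had a Pearson's r of 0.310 over the pairs. Of 563 genes in 282 tail-to-tail pairs 17.1% were lower and 21.3% higher, with r = 0.061, and of 488 genes in 253 pairs that follow each other on a strand 15.4% were lower and 26.6% higher, with r = 0.131. The correlations are descriptions over pairs of the same 4 libraries, and without strand the reads of overlapping neighbours cannot be told apart. Testing low genes as well leaves 45 head-to-head pairs with both genes lower and 0 with both higher, at fewer calls over all genes.

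Ordered by the smaller of the 2 changes, the pair with the largest joint fall was Aspa and Spata22 on chromosome 11, whose 5′ ends lie at 73329596 on the minus strand and 73329741 on the plus strand, 145 bases apart. Spata22 was at 324 and 229 FPKM in controls and 12.7 and 16.7 FPKM in Snf5 CKO. Aspa, which splits N-acetylaspartate into aspartate and acetate, was at 23.3 and 17.6 against 0.539 and 0.7305 FPKM. Their shared window is shown from 250 bases before to 50 after the RefSeq start of Spata22, with the CCAAT box, here on the reverse strand, in capitals 44 bases before that start, a box held by 40.3% of all promoters.
Spata22, chr11:73329491-73329790, plus strand: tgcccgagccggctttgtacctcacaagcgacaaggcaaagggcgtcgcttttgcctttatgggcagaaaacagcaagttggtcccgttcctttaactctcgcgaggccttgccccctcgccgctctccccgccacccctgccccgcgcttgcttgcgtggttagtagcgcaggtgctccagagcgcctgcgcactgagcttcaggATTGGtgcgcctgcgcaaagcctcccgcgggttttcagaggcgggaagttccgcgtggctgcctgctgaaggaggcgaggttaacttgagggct

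In other pairs both genes fell as well. Lypd4 and Dmrtc2, which start 116 bases apart, fell by 3.19 and 3.11, and Fmr1 and its antisense neighbour Fmr1os, 142 bases apart, by 1.97 and 2.42 on the log2 scale. Opposite changes were seen in the 10 pairs counted above. In 1 of them Styxl1 fell from 12.5 and 10.4 to 0.947 and 1.28 FPKM beside the rise of Mdh2, 95 bases away.

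**Figure D4:**
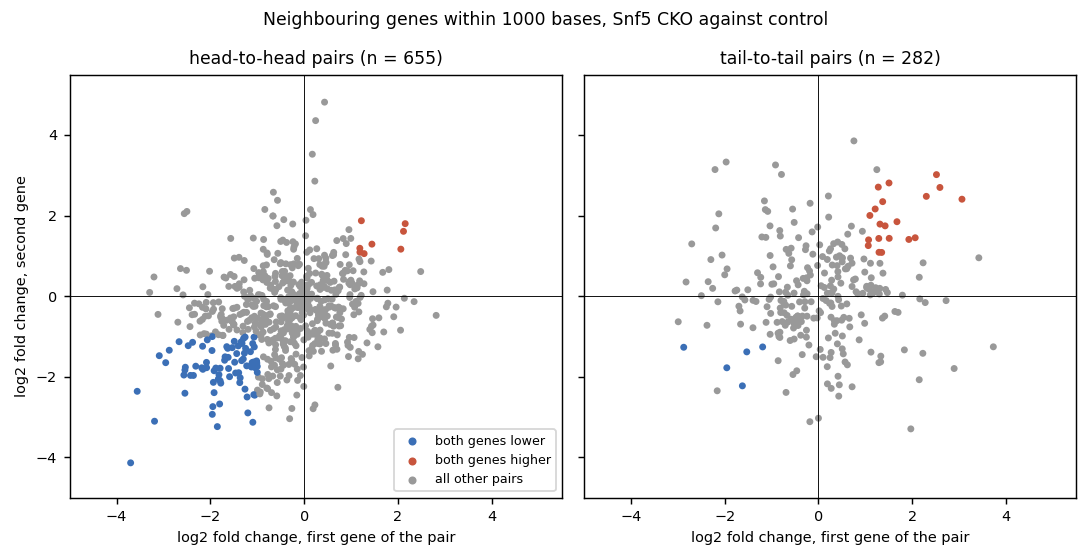
Log2 fold changes of the 2 genes of each head-to-head (left, 655 pairs) and tail-to-tail (right, 282 pairs) pair within 1000 bases, in Snf5 CKO against control, with pairs in which both genes were lower in blue and both higher in red. The 82 pairs with both genes lower fill the lower left of the head-to-head panel, against 5 in the tail-to-tail panel.

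By chromosome, the X chromosome had the largest share of genes called lower. Of its 451 tested genes 29.7% were lower and 19.5% higher, with a median log2 fold change of -0.30, beside 21.3% and 17.2% and a median of -0.12 on the autosomes. Among autosomes the share called lower ran from 16.3% on chromosome 19 to 25.7% on chromosome 1, and the share called higher from 13.1% on chromosome 16 to 20.5% on chromosome 17. X-linked genes held 3.66% and 3.93% of the tested FPKM in controls and 3.79% and 3.76% in Snf5 CKO, and the values of the groups overlap.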

How the data were processed

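RNA from sorted ovarian germ cells (4 libraries, 2 a group) was amplified with a kit that does not keep the strand and sequenced paired-end. The authors mapped reads to mm10 and deposited FPKM per locus. The submitters' processing notes name TopHat2 2.2.1 and Cuffdiff 2.1.1, and the study's methods give these version numbers the other way round. The files hold no counts, so the depth is unknown and no counting interval is given.

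Groups came from the labels. Lists and members were chosen with earlier results of these data known. Where a symbol had several loci the one with the highest mean stood for the gene, and 11529 genes that averaged 1 FPKM or more were tested as log2(FPKM + 1) with limma 3.58.1 (R 4.3.3, trended moderation) for Snf5 CKO against control, and p-values were adjusted by Benjamini-Hochberg over all of them. Adjusted p-values in the text are from this test. Called genes had an adjusted p under 0.05 and a log2 fold change of 1 or more in either direction. The test was checked on simulated data.

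Genes were named by a rule: preset members of the lists, the 3 largest falls and 3 largest rises of each list among called genes without overlap between the groups, the 12 largest of each outside the lists, and the marker genes. Of these the text prefers genes whose call held under every alternative that tested them. Dmrtc2, Fcer1g, Fmr1, Fmr1os, Foxl2, Gng13, Hbb-y, Lypd4, Ptprc, Stra8, Styxl1, Tyrobp and Wdr55 were named after their values were seen. Some genes are not reported here. Loci are given in mm10, with starts counted from 1. Gene orientation is from GENCODE vM21. RefSeq promoters (GRCm38.p6, the most upstream start of a gene) matched 8996 (82.5%) of 10898 tested genes at loci with 1 gene name outside chromosome 18, whose promoters were not used here, 437 of them by an older symbol. Not used were 8 columns of confidence bounds in the ovarian table and the columns of confidence bounds (8) and status (4) in the table of the other sex.

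The alternatives tried were testing of all named genes without the filter, a limit of 5 FPKM in place of 1, a pseudocount of 0.1, rescaling of libraries, no trend, a replicate block, loci with status OK, every named locus and each library left out.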

Additional observations from a re-analysis of the deposited data

How the results depend on the processing

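With 2 libraries a group and no counts, low genes are the least certain. Leaving out each library in turn gave 2315 to 2749 lower and 1955 to 2077 higher genes, a median over all genes of -0.15 to -0.12, 130 to 145 lower and 85 to 96 higher X-linked genes, 70 to 92 head-to-head pairs with both genes lower and 6 to 9 with both higher, and 13 to 18 functional lists with more genes lower than higher, beside 14. A lone library was then assumed to vary like the other group.

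Without the filter the median was 0, and 45 head-to-head pairs had both genes lower and 0 both higher. With the limit at 5 FPKM the median was -0.187 and 2 pairs had both genes higher. Rescaling by the median ratio gave a median of 0.0238 and 14 such pairs. The genes named in the text were preferred because their calls held under the alternatives, so that they held is no evidence of stability. Of 230 counts of lower or higher genes in lists, 76 moved by more than 1.5 times without the filter, 45 with the limit at 5 FPKM, 34 after rescaling by the median ratio, 24 with a pseudocount of 0.1, 19 to 30 with a library left out and at most 4 under each other alternative.

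The groups share replicate numbers, but the labels do not say that a number marks a shared litter or day. Deviations from the group means correlated at 0.50 between same-numbered libraries. With the replicate number as a block 2499 genes were lower and 2010 higher, beside 2490 and 1994.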
